A study of Mus musculus with 6 samples.

Results

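The integrated stress response and the unfolded protein response were examined through 35 genes, chosen by symbol from the 49492 rows of a table of read counts per gene. The genes were placed in 4 groups by function: 13 in the ATF4 arm, 3 sensors and factors of the unfolded protein response, 15 chaperones and disulfide isomerases that fold proteins in the endoplasmic reticulum (ER), and 4 genes of ER-associated degradation. RNA came from RAW264.7, a mouse macrophage cell line, and was sequenced as stranded mRNA libraries. A group of 3 libraries came from cells labelled as Ep300 silenced, transfected with 50 nM of an siRNA against Ep300, and a group of 3 from cells labelled WT that received 50 nM of a negative control siRNA. All cells were transfected with the same reagent for 48 h, and the labels name no ER stressor. The silencing is transient and partial, and the design text describes the controls as cells of the same generation. Ep300 encodes p300, a lysine acetyltransferase that works as a transcriptional coactivator. Separate cultures are not named for the libraries within a group. P-values therefore measure only the spread between these libraries, which may be technical.

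Both responses answer trouble with protein synthesis. In the integrated stress response, kinases phosphorylate the translation factor eIF2alpha, which slows translation in general but favours translation of the transcription factor ATF4, and ATF4 then turns on genes for amino acid synthesis and transport and its partner CHOP, encoded by Ddit3. In the unfolded protein response, the ER sensors IRE1 (encoded by Ern1), PERK and ATF6 detect unfolded proteins, and the factors XBP1 and cleaved ATF6 turn on ER chaperones and degradation genes. ATF6 and XBP1 are known to act through the ER stress response element in promoters, and ATF4 through a C/EBP-ATF composite element.

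Total counts ran from 29993567 to 45377510 per library. Ep300 was at 51.1, 59.0 and 54.9 CPM (read counts scaled to a common library size) in Ep300 siRNA replicates 1 to 3, and control siRNA replicates 1 to 3 were at 107, 115 and 118 CPM, a fall to 0.485 of the control level. Of the 10 macrophage markers, 9 were high enough to test and none passed edgeR's adjusted p, while 4 had an unadjusted p under 0.05, beside 22.2% of all genes. They summed to 10920 to 11967 CPM after Ep300 siRNA and 9947 to 11385 CPM after control siRNA, most of it Lyz2. Among single markers, Csf1r was at 621 to 708 against 762 to 802 CPM and Adgre1 at 61.4 to 68.0 against 72.3 to 84.3 CPM, while Cd14 was at 215 to 244 against 189 to 207 CPM. Markers of T and NK cells summed to at most 0.057 CPM and those of B and plasma cells, whose ER is large, to at most 0.306 CPM in any library. Those of neutrophils and fibroblasts summed to at most 0.416 and 0.722 CPM. Epithelial and endothelial markers summed to 15.6 to 16.7 CPM after Ep300 siRNA and 21.4 to 24.4 CPM after control siRNA, of which Vwf fell by 0.47 on the log2 scale. Their part in the results was not tested. In bulk RNA, fewer cells that express a gene and less of its RNA per cell cannot be told apart. Ep300 siRNA replicate 1 stood apart by its reads from Gm42418, which overlaps ribosomal RNA sequence: they came to 5691 CPM, where the other libraries had 1322 to 2148 CPM.

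The groups also differ in their promoter sequences, which is a description only, since they were made from genes with known roles in these responses. In windows from 250 bases before to 50 bases after each RefSeq transcription start (GRCm38.p6), present for 32 of the 35 genes, 4 motifs were searched on both strands. The ER stress response element, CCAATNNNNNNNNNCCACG, was found in 7 of 13 ER folding genes and in 1 of 4 degradation genes, Syvn1. It was found in none of the 13 ATF4-arm genes, and in 0.137% of the 27025 genes in the promoter table or 0.119% of all 32851 windows. They are shown because they mark which of the genes carry the classical element of the unfolded protein response, with its fixed bases in capitals (CGTGG and ATTGG where it lies on the other strand) and 5 flanking bases on each side, written 5′ to 3′ on the gene's strand.
Hspa5 (chr2:34772020-34772048, plus strand): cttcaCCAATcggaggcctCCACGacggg
Hsp90b1 (chr10:86705528-86705556, minus strand): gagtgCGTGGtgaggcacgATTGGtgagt
Hsp90b1 (chr10:86705633-86705661, minus strand): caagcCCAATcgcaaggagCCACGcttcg
Calr (chr8:84847070-84847098, minus strand): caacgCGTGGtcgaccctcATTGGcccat
Canx (chr11:50325795-50325823, minus strand): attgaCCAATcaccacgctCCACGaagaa
Dnajc3 (chr14:118937822-118937850, plus strand): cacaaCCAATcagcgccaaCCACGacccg
Creld2 (chr15:88819515-88819543, plus strand): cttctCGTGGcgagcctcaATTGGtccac
Pdia6 (chr12:17266486-17266514, plus strand): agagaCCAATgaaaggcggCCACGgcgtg
Syvn1 (chr19:6046527-6046555, plus strand): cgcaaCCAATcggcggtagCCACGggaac

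In Hspa5 the match lies in an exon of its own gene by GENCODE M21, upstream of the RefSeq start, and the others lie between annotated genes. A variant, the ER stress response element II, ATTGGNCCACG, was found in Dnajb11 and Herpud1, and in 0.0444% of genes in the promoter table or 0.0365% of all windows. The Dnajb11 match lies in an exon of its own gene and that of Herpud1 in an intron of Gm15890; capitals again mark the fixed bases.
Dnajb11 (chr16:22857847-22857867, plus strand): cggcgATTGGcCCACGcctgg
Herpud1 (chr8:94386372-94386392, plus strand): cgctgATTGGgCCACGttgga

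The C/EBP-ATF element was searched as TGATGNAA and found in 5 of 13 ATF4-arm genes (Asns, Chac1, Nupr1, Slc7a11 and Trib3) and in 1 degradation gene, Herpud1. It was in 4.51% of genes in the promoter table and 3.97% of all windows. None of the 13 ER folding genes in the promoter table held it. Slc7a11 held a pair of matches. These carry the element through which ATF4 is known to act, and are shown on the gene's strand with the element in capitals (as its reverse complement where it lies on the other strand). By GENCODE M21 the matches in Asns and Nupr1 lie in exons of their own genes, and those of Chac1, Slc7a11 and Trib3 between annotated genes. The Trib3 match covers bases 15 to 22 downstream of the RefSeq start.
Asns (chr6:7693220-7693237, minus strand): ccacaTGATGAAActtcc
Chac1 (chr2:119351044-119351061, plus strand): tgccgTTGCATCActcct
Nupr1 (chr7:126625568-126625585, minus strand): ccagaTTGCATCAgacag
Slc7a11 (chr3:50443648-50443665, minus strand): agaatTTGCATCAtcatg
Slc7a11 (chr3:50443667-50443684, minus strand): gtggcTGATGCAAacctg
Trib3 (chr2:152344034-152344051, minus strand): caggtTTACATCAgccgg
Herpud1 (chr8:94386312-94386329, plus strand): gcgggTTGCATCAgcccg

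The XBP1-type element TGACGTGG was in none of the members' windows and in 0.676% of all windows. For Calr and Canx, which had the largest fold changes among the genes that hold the ER stress response element, the whole upstream stretch is given up to the first annotated exon, with the element in capitals.
Calr upstream region (chr8:84846935-84847181, minus strand): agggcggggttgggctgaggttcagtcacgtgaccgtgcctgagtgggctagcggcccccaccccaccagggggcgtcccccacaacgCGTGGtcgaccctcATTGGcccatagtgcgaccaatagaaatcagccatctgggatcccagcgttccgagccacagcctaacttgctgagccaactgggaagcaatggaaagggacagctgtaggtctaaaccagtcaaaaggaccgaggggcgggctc
Canx upstream region (chr11:50325674-50325923, minus strand): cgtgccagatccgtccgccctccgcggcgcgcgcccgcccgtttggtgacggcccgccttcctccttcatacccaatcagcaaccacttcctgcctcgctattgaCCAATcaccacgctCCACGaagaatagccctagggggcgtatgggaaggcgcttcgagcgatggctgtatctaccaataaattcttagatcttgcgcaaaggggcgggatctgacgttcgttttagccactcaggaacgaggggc

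Across all genes, 15741 passed the filter on low counts, all 35 members among them, and 1068 (6.78%) had an edgeR adjusted p under 0.05. Of the 15 ER folding genes, 14 had a positive log2 fold change, and Manf, the other, turned positive with RLE scaling and in DESeq2. Hyou1 and Pdia3 rose past the threshold. That makes 2 of 35 members past it, or 2 of 15 ER folding genes, where 2.76% of all genes rose. None of the 13 ATF4-arm genes, sensors or degradation genes passed, where 4.02% of all genes fell. The members' changes were small, from a log2 fold change of −0.43 for Slc7a11 to 0.29 for Calr.

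More members passed without the adjustment for multiple testing. At an unadjusted edgeR p under 0.05, 9 members were higher, of which 8 were ER folding genes and the other was Sel1l, against 10.3% of all genes. Another 4 of the 35 members were lower, no larger a share than the 11.9% of all genes. These 4 were all of the ATF4 arm (Atf4, Nupr1, Psat1 and Slc7a11). The Ep300 siRNA libraries lay wholly above the controls for 12 members, 10 of them ER folding genes, where 13% of all genes did so. They lay wholly below for 4 of the 35 members, 3 of the ATF4 arm and Atf6, a smaller share than the 14.4% of all genes. A positive log2 fold change was seen in 23 of 35 members, 14 of 15 ER folding genes and 5 of 13 ATF4-arm genes (4 on library sizes alone, where Atf5 turned negative), against 49.2% of all genes. DESeq2 called 7 members higher, all ER folding genes (5.31% of the genes it tested), and 2 lower, Atf4 and Nupr1 (5.49%). Limma-voom called 4 higher, Hspa5, Pdia3, Calr and Hyou1 (2.8%).

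**Figure D1:**
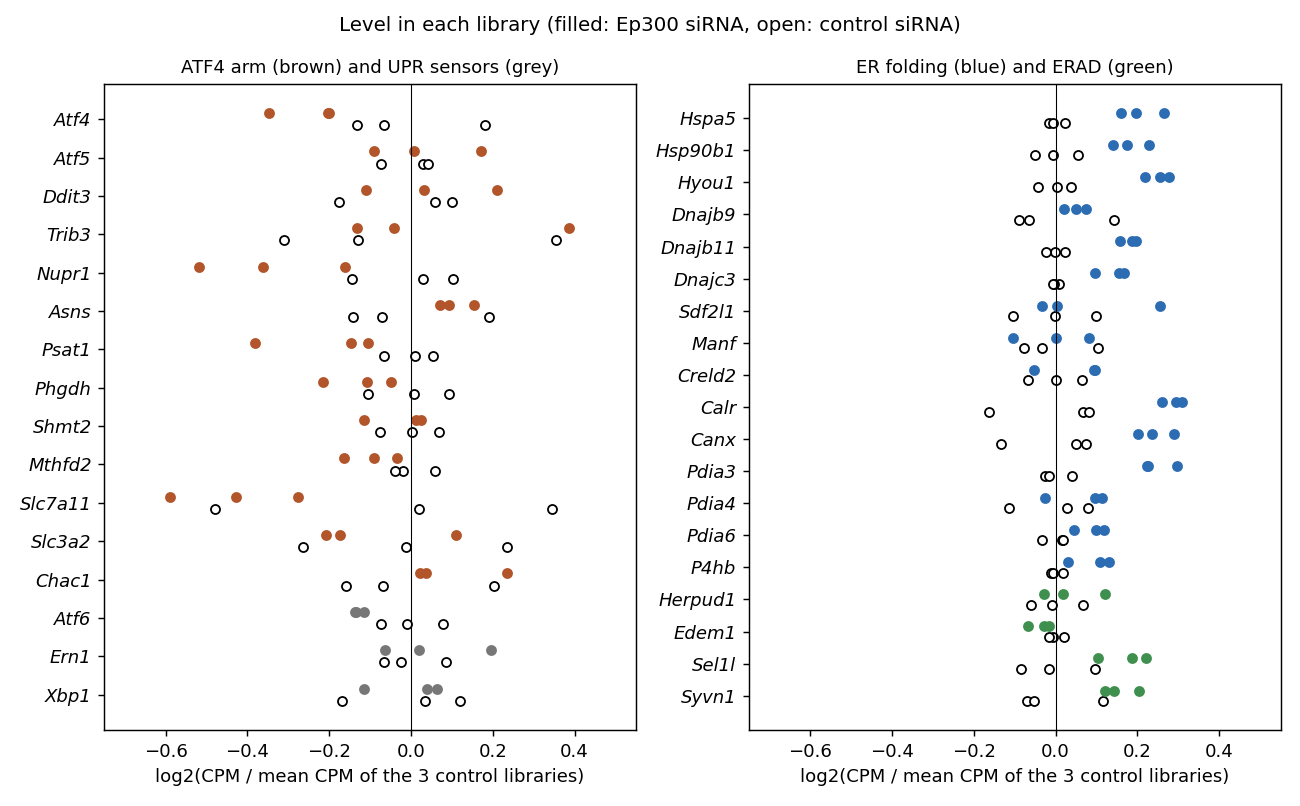
Each member's level in each of the 6 libraries, as log2 of its CPM over the mean of the 3 control libraries (x axis; 1 gene per row). Filled points are Ep300 siRNA libraries and open points control siRNA libraries; the filled points lie clear to the right of the open ones for 10 of the 15 ER folding genes and clear to the left for 3 of the 13 ATF4-arm genes.

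Among the chaperones, Hyou1 (chr9:44379490-44392369, plus strand, GRCm38) rose 1.19-fold. It encodes an ER-resident relative of HSP70 that works as a nucleotide exchange factor for BiP. Its level was 286, 278 and 290.0 CPM with Ep300 siRNA (replicates 1 to 3, as in all such values below) and 240.0, 246 and 232 CPM with control siRNA, so the groups lay apart. This gave a log2 fold change of 0.25 ± 0.06 (SE, n = 3 per group), a 95% interval of 0.12 to 0.38 and an edgeR adjusted p of 0.0244. Pdia3 (chr2:121413775-121438687, plus strand), the disulfide isomerase that works with calreticulin and calnexin on glycoproteins, rose 1.19-fold as well. It was at 1048, 1048 and 1101 CPM after Ep300 siRNA and at 922, 881 and 887 CPM after control siRNA. The log2 fold change of 0.25 ± 0.06 (SE) had a 95% interval of 0.11 to 0.39 and an edgeR adjusted p of 0.0356. Each call was lost with any 1 library left out except control siRNA replicate 1. Leaving out Ep300 siRNA replicates 1 to 3 in turn, the edgeR adjusted p was 0.0613, 0.0592 and 0.0971 for Hyou1 and 0.0625, 0.0839 and 0.131 for Pdia3. Without control siRNA replicates 2 and 3 it was 0.0599 and 0.0915 for Hyou1 and 0.109 and 0.101 for Pdia3. Their log2 fold changes then ran from 0.23 to 0.28 and from 0.23 to 0.27. On library sizes alone, with no scaling factors, Pdia3 did not pass (edgeR adjusted p = 0.0646).

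The lectin chaperones, which hold newly made glycoproteins until they are folded, followed the same direction without passing. Calr (chr8:84841850-84846934, minus strand), which encodes calreticulin, was at 3644, 3519.5 and 3607 CPM with Ep300 siRNA and at 2626, 3079.7 and 3112 CPM with control siRNA. Its log2 fold change was 0.29 ± 0.08 (SE, edgeR adjusted p = 0.0522). The groups did not overlap, but control siRNA replicate 1 lay far below the other controls, and without it the log2 fold change was 0.22. Canx, the membrane-bound counterpart calnexin, was at 1698, 1634 and 1597 CPM against 1265, 1438 and 1462 CPM. Control siRNA replicate 1 was again the lowest, and the log2 fold change was 0.24 ± 0.07 (SE, edgeR adjusted p = 0.0755).

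Hspa5 (chr2:34771970-34777547, plus strand) encodes BiP, the main HSP70 of the ER and the usual readout of ER stress. It was at 1273, 1242 and 1335 CPM after Ep300 siRNA and at 1129, 1098 and 1107 CPM after control siRNA. The groups lay apart, with a log2 fold change of 0.21 ± 0.06 (SE, 95% interval 0.07 to 0.35, edgeR adjusted p = 0.0763). Hsp90b1, the ER form of HSP90, was at 3035, 3109 and 3228 CPM against 2743, 2662 and 2861 CPM (log2 fold change 0.18 ± 0.07, SE). Of its exon bases, 415 lie opposite exons of 1810014B01Rik on the other strand, with strand use in the counting not given in the sources used here. Dnajb11 and Dnajc3 encode J-domain co-chaperones of BiP. Dnajb11 was at 286, 281 and 288 CPM against 256, 252 and 248 CPM (log2 fold change 0.18 ± 0.06, SE), and Dnajc3 at 121, 120.2 and 115 CPM against 109, 108 and 107 CPM (0.14 ± 0.05). For both, every Ep300 siRNA library lay above every control, and neither passed edgeR's adjusted p (0.0807 and 0.156).

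The remaining chaperone genes were at log2 fold changes of −0.01 to 0.08, and their groups overlapped. Dnajb9, a further J-domain co-chaperone and a usual target of XBP1, was at 28.4 to 29.5 CPM after Ep300 siRNA and 26.4 to 30.9 CPM after control siRNA. Sdf2l1, a partner of Dnajb11, was at 24.0 to 29.4 against 22.9 to 26.4 CPM. Creld2, secreted upon ER stress, was at 83.2 to 92.2 against 82.3 to 90.2 CPM. Manf, an ER-resident protein that is also secreted, was at 155 to 176 against 158 to 179 CPM, with a 95% interval of −0.16 to 0.15 for its log2 fold change. Among the other disulfide isomerases, Pdia6 (log2 fold change 0.09 ± 0.06, SE) and P4hb (0.09 ± 0.06) had groups that did not overlap, while those of Pdia4 (0.06 ± 0.07) did. None of these passed.

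**Figure D2:**
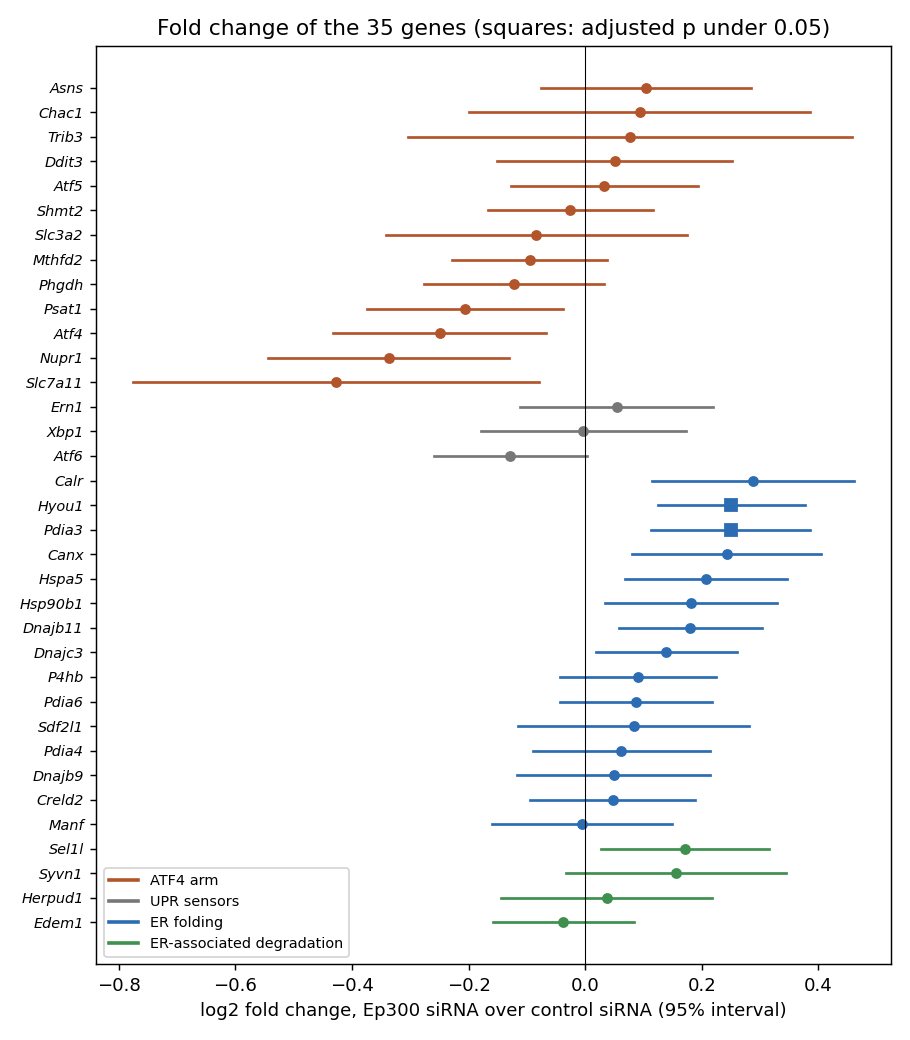
Log2 fold change of Ep300 siRNA over control siRNA for the 35 members (x axis), with 95% intervals as bars and colours by group; n = 3 libraries per group. The intervals of 8 of 15 ER folding genes lie above 0 and those of 4 of 13 ATF4-arm genes below 0, and squares mark Hyou1 and Pdia3, whose adjusted p is under 0.05.

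The level of the ER folding genes was read per length, as CPM per kilobase of merged exons. In control cells Calr stood first among the 35 members, at 1021 CPM per kilobase, followed by Hsp90b1 at 684, Canx at 296, Pdia3 at 286, Hspa5 at 263 and P4hb at 215. The control ranges of Canx (269.7 to 312) and Pdia3 (281 to 294) overlapped, so these neighbours did not differ beyond their spread. The lowest were Syvn1 at 2.71 and Chac1 at 3.35 CPM per kilobase. Among the 15 ER folding genes the log2 fold change tended to be larger in genes with a higher control level (Spearman rho = 0.586 across genes, a description, since the genes share libraries). For the 13 ATF4-arm genes the same rho was −0.0934. Read by CPM without exon length, abundant ones among all genes leaned towards positive changes too. Of the 283 genes with a mean of at least 500 CPM, 67.1% had a positive log2 fold change, with a median of 0.06. In that range 24.7% of genes were higher at an unadjusted edgeR p under 0.05, against 5 of the 7 ER folding genes there, whose median log2 fold change was 0.21. At edgeR's adjusted p, 6.71% of genes in that range rose past the threshold, against 1 of the 7. With a mean of at least 100 CPM, 6.17% of genes rose past it, against 2 of 12 ER folding genes. The part of level in the result was not tested. As a share of all counts, the 15 ER folding genes took 1.29%, 1.28% and 1.33% with Ep300 siRNA and 1.12%, 1.14% and 1.19% with control siRNA. Those shares did not overlap between the groups.

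**Figure D3:**
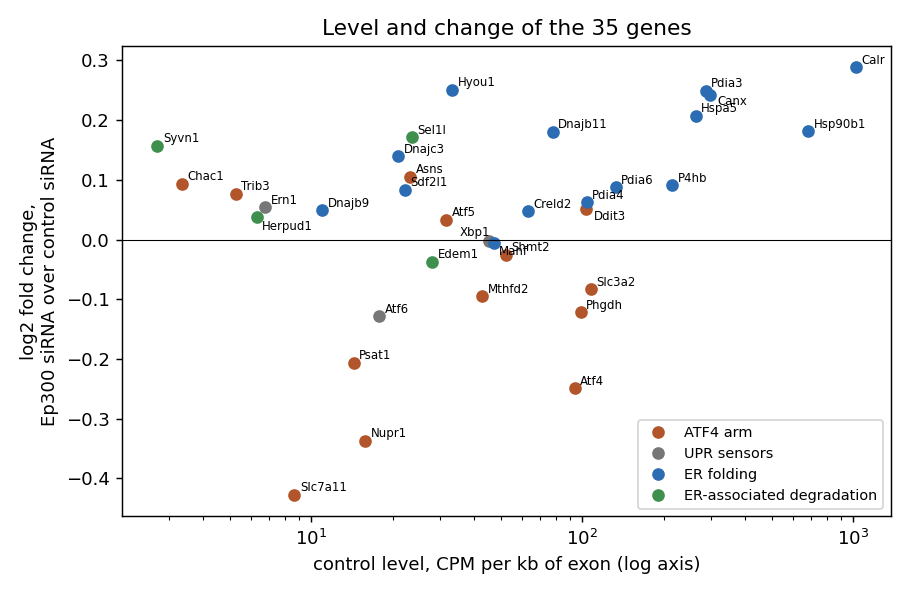
Control level in CPM per kilobase of exon (x axis, log scale) against the log2 fold change of Ep300 siRNA over control siRNA (y axis) for the 35 members, coloured by group. The 5 most abundant genes, Calr, Hsp90b1, Canx, Pdia3 and Hspa5, lie between 0.18 and 0.29. The next by level, P4hb and Pdia6, lie at 0.09, and the ATF4-arm genes reach down to −0.43.

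None of the 5 stress factors of the ATF4 arm passed. Atf4 itself (chr15:80255184-80257541, plus strand) was at 193, 174 and 193 CPM after Ep300 siRNA and at 251, 212 and 202 CPM after control siRNA, with the groups apart and control siRNA replicate 1 the highest. Its log2 fold change was −0.25 ± 0.08 (SE, edgeR adjusted p = 0.102), and −0.15 without control siRNA replicate 1. ATF4 is controlled mainly at translation, which counts of mRNA do not show. Nupr1 (chr7:126623249-126630861, minus strand), a small stress-induced chromatin protein, was at 27.8, 35.6 and 31.0 CPM against 36.0, 40.6 and 42.8 CPM. Its log2 fold change was −0.34 ± 0.09 (SE, edgeR adjusted p = 0.0556), with the groups narrowly apart. It passed without Ep300 siRNA replicate 2 (edgeR adjusted p = 0.0334) or control siRNA replicate 1 (0.0287) and on library sizes alone (0.0407).

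Ddit3, which encodes the stress factor CHOP, showed overlapping groups. It was at 164, 206 and 182 CPM after Ep300 siRNA and at 157, 185 and 191 CPM after control siRNA (log2 fold change 0.05 ± 0.09, SE, 95% interval −0.15 to 0.25). In GENCODE M21 this symbol covers 2 overlapping gene records, with those counted not given in the sources used here. Trib3, a pseudokinase that CHOP and ATF4 induce, was at 10.2 to 14.6 against 9.02 to 14.3 CPM, and in each group replicate 1 held the highest value. Atf5, a relative of Atf4, was at 58.9 to 70.6 against 59.6 to 64.6 CPM. Chac1, which degrades glutathione, was at 5.56 to 6.44 against 4.90 to 6.30 CPM.

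None of the 8 metabolic targets passed, and 6 had a negative log2 fold change. Slc7a11 (chr3:49892526-50443614, minus strand), the cystine transporter subunit of system xc-, was at 99.7, 89.8 and 80.2 CPM after Ep300 siRNA and at 153, 122 and 86.6 CPM after control siRNA. The controls were spread widely and the groups overlapped, with a log2 fold change of −0.43 ± 0.16 (SE, 95% interval −0.78 to −0.08, edgeR adjusted p = 0.137). Leaving out control siRNA replicate 1 gave −0.21, and leaving out control siRNA replicate 3 gave −0.61, which passed (edgeR adjusted p = 0.0111). Its partner subunit Slc3a2 was at 329 to 409.7 against 316 to 446 CPM.

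Psat1 (chr19:15904678-15947337, minus strand), the aminotransferase of serine synthesis, was at 55.2, 46.8 and 56.8 CPM against 63.3, 61.5 and 58.3 CPM, with the groups apart (log2 fold change −0.21 ± 0.08, SE, edgeR adjusted p = 0.136). Phgdh, the first enzyme of that pathway, was at −0.12 ± 0.07 (SE), and the mitochondrial folate enzymes Mthfd2 and Shmt2 were at −0.09 ± 0.06 and −0.03 ± 0.06. Asns, asparagine synthetase and a usual readout of ATF4, was at 66.8 to 70.7 CPM after Ep300 siRNA and 57.6 to 72.6 CPM after control siRNA (0.11 ± 0.08, SE). For 10 of the 13 ATF4-arm genes, control siRNA replicate 1 held the highest value of the 3 controls. For 7 of the 13, Ep300 siRNA replicate 1 was the highest of its group. Among the 15 ER folding genes, replicate 1 was the highest for 8 in the controls and for 6 after Ep300 siRNA.

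The arms were also compared library by library. The median deviation of the 15 ER folding genes from the control mean, on the log2 CPM scale, was 0.14, 0.16 and 0.20 with Ep300 siRNA and 0.0091, −0.0034 and −0.0056 with control siRNA. For the 13 ATF4-arm genes it was −0.05, −0.16 and −0.10 with Ep300 siRNA and 0.09, 0.0014 and −0.07 with control siRNA, so that these groups overlapped. The difference between the arms was 0.19, 0.31 and 0.30 after Ep300 siRNA and −0.08, −0.0049 and 0.07 after control siRNA. The median log2 fold change was 0.14 for the ER folding genes and −0.08 for the ATF4 arm, beside −0.0038 for all genes tested. No p-value is given, since genes of an arm are not replicates. The ER folding median kept to 0.13 to 0.16 with any 1 library left out. That of the ATF4 arm was −0.03 without control siRNA replicate 1, −0.04 without Ep300 siRNA replicate 2 and −0.05 without Ep300 siRNA replicate 3. It was −0.11 without control siRNA replicate 3, −0.09 without Ep300 siRNA replicate 1 and −0.08 without control siRNA replicate 2.

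**Figure D4:**
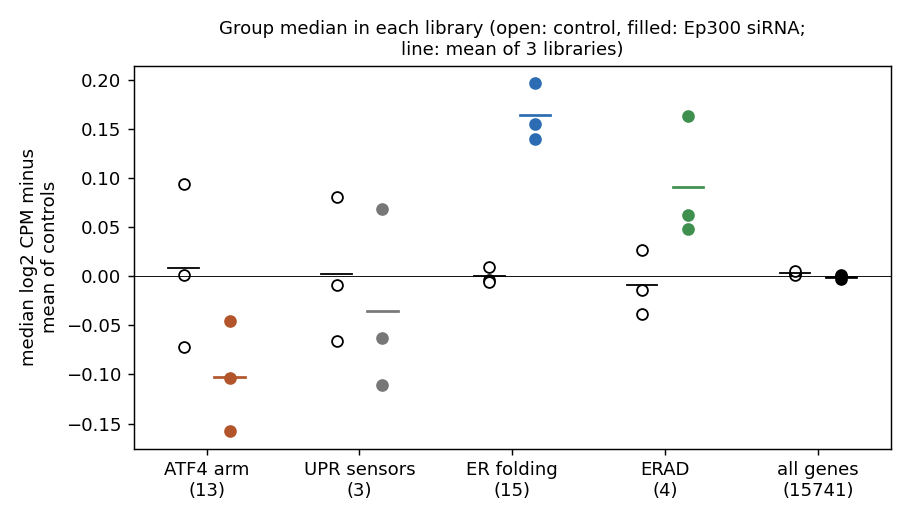
Median deviation from the control mean (y axis, log2 CPM) of each group of genes in each library, with open points for the 3 control libraries, filled points for the 3 Ep300 siRNA libraries and lines for their means. The ER folding genes sit at 0.14 to 0.20 in the Ep300 siRNA libraries and within 0.01 of 0 in the controls, while the ATF4 arm overlaps between the groups.

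The sensors of the unfolded protein response did not pass. Xbp1 was at 153, 135 and 151 CPM after Ep300 siRNA and at 159, 130.3 and 150.2 CPM after control siRNA, with a log2 fold change of −0.0029 ± 0.08 (SE, 95% interval −0.18 to 0.17). Gene counts do not separate the spliced from the unspliced form of Xbp1, so the activity of IRE1 was not measured. Ern1, which encodes IRE1, was at 52.8 to 63.2 against 52.7 to 58.6 CPM. Atf6 was at 149.6, 149.9 and 152 CPM against 156, 174 and 163 CPM, lower in every Ep300 siRNA library (log2 fold change −0.13 ± 0.06, SE, edgeR adjusted p = 0.235).

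None of the 4 genes of ER-associated degradation passed. Sel1l, the adaptor of that complex, was at 234, 229 and 216 CPM after Ep300 siRNA and at 189, 214 and 198 CPM after control siRNA. The groups lay narrowly apart (log2 fold change 0.17 ± 0.07, SE, edgeR adjusted p = 0.148). Syvn1, the ligase itself, was at 14.3 to 15.1 against 12.5 to 14.2 CPM (0.16 ± 0.09, SE, adjusted p = 0.324 by edgeR). Herpud1, a stress-induced scaffold of the complex, was at 15.1 ± 0.808 against 14.7 ± 0.653 CPM (SD, n = 3), and Edem1, a mannosidase-like protein that extracts misfolded glycoproteins, at 172 to 178 against 178 to 183 CPM. Neither passed.

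The motif matches were set beside the fold changes as a description. The 10 members with the element or its variant had log2 fold changes of 0.04 to 0.29, with a median of 0.17. Among ER folding genes alone, the 8 with either form ran from 0.05 to 0.29, with a median of 0.18. The 5 in the table with neither ran from 0.05 to 0.25, with a median of 0.08 and Pdia3 the highest. Hyou1 (0.25) and Manf (−0.01) had no promoter window and are in neither set. Of the other genes with the element in a promoter window, 6 were high enough to test: 2 had a positive log2 fold change, none passed, and their median was −0.16. Of the other genes with the variant, 6 were tested: 2 had a positive log2 fold change, 1 rose past the threshold, and their median was −0.07. That 1 was Nucb1, a calcium-binding protein of the secretory pathway named here after its values were seen (log2 fold change 0.26, edgeR adjusted p = 0.0349). Of 271 other genes tested with the C/EBP-ATF element, 10 rose and 16 fell, beside 2.76% and 4.02% of all genes. Their median was −0.02, near that of all genes.

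Upstream of the ATF4 arm, 15 genes of eIF2alpha phosphorylation and eIF2B were tested, with a median log2 fold change of 0.02. Of these 1 rose and 1 fell past the threshold, beside 2.76% and 4.02% of all genes. Eif2ak2, the kinase PKR that double-stranded RNA activates, rose 1.34-fold, from 447 ± 42.3 to 601 ± 83.8 CPM (SD, n = 3, edgeR adjusted p = 0.03). Its call was lost with any 1 library left out except Ep300 siRNA replicate 1 (edgeR adjusted p of 0.115, 0.1, 0.063, 0.0714 and 0.0521 without Ep300 siRNA replicates 2 and 3 and control siRNA replicates 1, 2 and 3). Ppp1r15a, the stress-induced phosphatase subunit GADD34 that reverses eIF2alpha phosphorylation and is itself an ATF4 target, fell to 0.794 of its control level. It was at 172, 188 and 193 CPM after Ep300 siRNA and 232, 244 and 221 CPM after control siRNA (edgeR adjusted p = 0.0124), and did not pass without Ep300 siRNA replicate 1 (0.0535) or control siRNA replicate 2 (0.0757).

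Of 22 further ATF4 targets tested, 12 had a positive log2 fold change, beside 49.2% of all genes. Past the threshold 1 rose and 1 fell, beside 2.76% and 4.02% of all genes. Aldh1l2, a mitochondrial folate enzyme, rose 1.2-fold (53.5 ± 4.65 against 44.6 ± 0.970 CPM, SD, n = 3, edgeR adjusted p = 0.0499), a call lost with any 1 library left out (edgeR adjusted p of 0.0613 to 0.145). Psph, the last enzyme of serine synthesis, fell to 0.824 (43.3 ± 3.30 against 52.5 ± 2.12 CPM, edgeR adjusted p = 0.036), a call that held with 1 library left out only for Ep300 siRNA replicate 1 (0.058 to 0.136 for the other 5). The median log2 fold change of the 22 was 0.03. Of 20 cytosolic aminoacyl-tRNA synthetases (median log2 fold change 0.04), many of them ATF4 targets, only Iars passed, beside 6.78% of all genes. This isoleucyl-tRNA synthetase fell to 0.86, from 145 ± 1.99 to 125 ± 0.438 CPM (edgeR adjusted p = 0.0339), and did not pass with any 1 library left out (0.0596 to 0.119).

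In the rest of the ER machinery, of 21 other folding enzymes, 3 rose and 1 fell (median 0.09), beside 2.76% and 4.02% of all genes. Ganab, the catalytic subunit of glucosidase II, which trims glycans so that calreticulin and calnexin can bind, rose 1.48-fold, from 46.0 ± 1.79 to 68.2 ± 4.82 CPM (SD, n = 3, edgeR adjusted p = 0.000878). Uggt1, which adds the glucose back to misfolded glycoproteins, rose 1.2-fold and Qsox1, a thiol oxidase, 1.26-fold. Both were named after their values were seen. Fkbp2, a prolyl isomerase, fell to 0.81 (edgeR adjusted p = 0.0245) and did not pass once Ep300 siRNA replicate 2 (0.106) or 3 (0.0755) was left out, nor without replicate 1 (0.0539) or 2 (0.0892) of the controls.

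Of 21 other degradation genes, 1 rose and 1 fell (median 0.02), beside 2.76% and 4.02% of all genes. Os9, a lectin that brings misfolded glycoproteins to the Sel1l complex, rose 1.36-fold, from 516 ± 19.8 to 701 ± 43.7 CPM (SD, n = 3, edgeR adjusted p = 0.00345). Ganab and Os9 kept their calls with each library left out in turn (edgeR adjusted p up to 0.0072 and 0.019). Ube2g2, a ubiquitin-conjugating enzyme of this pathway, fell to 0.757 (edgeR adjusted p = 0.0118), and did not pass once replicate 2 of either group was left out (0.0559 for Ep300 siRNA and 0.0666 for control siRNA).

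Of 26 translocon and N-glycosylation genes, 19 had a positive log2 fold change (median 0.07), beside 49.2% of all genes. None passed edgeR's adjusted p, though 3 had an unadjusted p under 0.05, as did 22.2% of all genes. The smallest p was that of Stt3a, a catalytic subunit of the oligosaccharyltransferase (log2 fold change 0.19 ± 0.06, SE). Of 11 genes of the ATF6 and CREB3 family, the site proteases and cell death partners, 8 had a positive log2 fold change. Their median was 0.16, above the 0.14 of the ER folding members. None passed and 5 had an unadjusted p under 0.05, beside the same 22.2% of all genes. The smallest was that of Mbtps1, the site-1 protease that cleaves ATF6 (0.22 ± 0.06, SE, edgeR adjusted p = 0.0531). Of 15 cytosolic heat shock genes tested, none passed and 6 had an unadjusted p under 0.05, again beside 22.2% of all genes. Their median log2 fold change was −0.01, and the smallest p was that of Dnaja1, a cytosolic co-chaperone of HSP70 (0.24 ± 0.07, SE).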

How the data were processed

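The authors deposited raw counts per gene symbol, with library columns matched to samples by title. The submitters' processing notes name GRCm38, featureCounts, edgeR 3.12.1, fastp 0.23.4 and STAR 2.5.3a, with annotation, strand and multimapping settings not given in the sources used here. Of counts from 1 to 4, 79.8% to 80.9% were even in each library, so counts may hold both mates of a pair, and halved counts were an alternative. The test was edgeR 4.0.16, run in R 4.3.3 (filterByExpr by group, TMM scaling, quasi-likelihood F-test, 2 groups of 3, no covariate), with two-sided p-values adjusted by Benjamini-Hochberg over all 15741 genes tested and a threshold of 0.05. The biological coefficient of variation was 8.6%. CPM uses TMM-scaled library sizes except for markers and Gm42418, and log2 CPM a prior count of 2. DESeq2 1.42.0 and limma-voom (limma 3.58.1) were alternatives. Coordinates and exon lengths came from GENCODE M21 and promoters from RefSeq (GRCm38.p6). Sequences and figures used Python 3.11.15 and matplotlib 3.10.9. Tested on simulated counts for 15549 genes, the edgeR test found 72% of the 1.5-fold changes and 92% of the 2-fold changes, and 9 of its 188 calls were false. The simulation gave every gene the same biological coefficient of variation, so it does not cover genes or libraries with a wider spread. Changes of 1.2-fold were not simulated. Members, lists and tests were chosen with earlier results of these data known. The text names all members, Ep300 and, from each of 8 pathway lists, the most significant gene that rose and that fell past the threshold, or, if none passed, the most significant gene.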

Additional observations from a re-analysis of the deposited data

How the results depend on the processing

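Ep300 kept its call in all 17 alternative fits. The number of members past the threshold, 2, was 8 with no filter on low counts, 9 by DESeq2, 5 with the replicate number as a block, 4 by limma-voom, 4 by edgeR's likelihood-ratio test, and 0 to 3 with 1 library left out. It was 0 at an adjusted p under 0.01 and 7 under 0.1. The cause was not tested. The number of all genes changed, 1068, was 1721 with no filter and 369 at an adjusted p under 0.01, and 490 (without control siRNA replicate 2) to 1054 (without control siRNA replicate 1) with 1 library left out. Over the pathway lists the 11 calls became 18 with no filter, 22 by DESeq2 and 3 to 7 with 1 library left out. With library sizes alone the ER folding median was 0.11, and 316 genes rose and 788 fell against 435 and 633. The difference of the arm medians, 0.22, ran from 0.17 to 0.25.

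With replicate numbers as a block, 1357 genes changed, and among members Slc7a11, Nupr1 and Calr passed besides Hyou1 and Pdia3. Over all genes tested, the deviations of same-numbered libraries had correlations of 0.09, 0.02 and −0.05. Those of differently numbered libraries ran from −0.10 to 0.09. Values over all genes cannot show whether some genes share a batch, so it remains unknown whether the numbers pair the libraries.

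Genes near 0 changed sign in some fits. Xbp1 was at 0.0036 with RLE scaling, 0.00027 with the block, 0.0048 by DESeq2 and −0.071 to 0.065 with 1 library left out. Manf was at 0.0014 with RLE scaling, 0.0024 by DESeq2 and −0.050 to 0.054 with 1 library left out. Atf5 was at −0.0017 with library sizes alone and −0.032 to 0.092 with 1 library left out. With 1 library left out, Trib3 ran from −0.085 to 0.30, Ern1 from −0.012 to 0.11, Ddit3 from −0.036 to 0.13, Shmt2 from −0.052 to 0.019, Sdf2l1 from −0.014 to 0.14 and Slc3a2 from −0.19 to 0.053. With 3 libraries a group, members' standard errors were 0.05 to 0.17 on the log2 scale, which limits the differences that can be told apart.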
